A study of Mus musculus with 6 samples.

Results

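The 10 genes described here encode proteins and long noncoding RNAs that are abundant in the fetal liver or that control growth before birth, and most of them are imprinted. They were Afp, H19, Igf2, Gpc3, Dlk1, Meg3, Peg3, Plagl1, Cdkn1c and Mest, taken by name from the deposited expression tables, and all 10 were found among 49135 genes listed at a shared place for every mouse. RNA-Seq of liver was compared between 3 laboratory mice and 3 wild mice (Mus musculus). The laboratory mice were inbred C57BL/6 males bought as adults and killed on arrival. The wild mice were outbred adults, live-trapped at a pair of places in New South Wales, Australia, and then kept for some months in captivity. Wild mouse 1 was a male and the remaining wild mice were females, and sex and origin could not be fully told apart. All laboratory mice were males, so with sex as a covariate the difference by origin sets wild mouse 1 alone against them. The ages of the wild mice are not given in the sources used here. The laboratory mice had been archived for longer than the wild mice, so time of preparation also followed origin. Every library was made from unfixed, frozen liver, and no engineered allele or treatment is named for any mouse. Each library stands for 1 animal, so the comparison rests on these 6 mice. In the main limma fit described below, the variance of each gene was drawn largely from a trend over all tested genes. Its p-values, SEs and intervals therefore do not measure the gene's own spread between the mice. For Meg3, for example, the SE was 0.46 in the main fit and 0.194 with no trend.

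Imprinted genes are transcribed mainly from the allele inherited from 1 parent. Many of them set the size of the fetus and placenta, and in rodents most fall to low levels in liver and other organs soon after birth. Afp, Gpc3 and H19 are also classical fetal liver genes that hepatocytes switch off after birth through repressors such as Zhx2 and Zbtb20, and they can return during regeneration and in liver tumours.

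The genes lie at several places in the mouse genome (GRCm38.p6). Afp, encoding alpha-fetoprotein, the main plasma protein of the fetus, lies at chr5:90490714-90508907 beside the albumin gene. The growth factor gene Igf2 (chr7:142650768-142666816) and the noncoding H19 (chr7:142575530-142578146) are neighbours, and Cdkn1c (chr7:143458339-143461059) lies further along the same imprinted region. Dlk1 (chr12:109452485-109463336) and the noncoding Meg3 (chr12:109540996-109571729) are also neighbours. Peg3 (chr7:6703892-6730462), Plagl1 (chr10:13090832-13131694) and Mest (chr6:30733506-30748466) belong to imprinted regions of their own. Gpc3 (chrX:52272426-52613974) is X-linked.

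RefSeq promoter windows (GRCm38.p6) of 300 bases, 250 before and 50 after a start site, were matched for 8 of the 10 genes, in 14 windows, and 10 of the 14 held more CG pairs than the median of 7 over 32817 windows. Of the genes with a window, Afp, Gpc3 and Mest had higher FPKM in all wild than in all laboratory mice. Afp and Mest are printed here as examples. The Gpc3 window, not printed, held 30 CG pairs, and 88.3% of windows held fewer. The Afp window held 3 CG pairs, and 23.3% of windows held fewer. Mest has 3 windows. The window at the start of the listed gene held 8 CG pairs, with 51.4% of windows holding fewer, and those at a downstream start held 17, with 68.6% holding fewer. A downstream window is printed, chosen as the richer in CG. The letters TATAAA, searched on both strands, were found in 13.6% of all windows and in 2 of the 14, the Afp window and a Meg3 window. The 250 bases before each start are printed, Afp with TATAAA in capitals (chr5:90490464-90490713, plus strand) and Mest with CG in capitals (chr6:30737800-30738049, plus strand). A match of letters is a description and shows no binding.
Afp: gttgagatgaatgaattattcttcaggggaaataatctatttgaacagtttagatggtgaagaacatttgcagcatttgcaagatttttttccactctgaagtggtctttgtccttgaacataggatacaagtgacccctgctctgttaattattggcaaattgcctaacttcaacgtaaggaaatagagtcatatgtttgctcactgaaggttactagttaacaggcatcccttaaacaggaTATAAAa
Mest: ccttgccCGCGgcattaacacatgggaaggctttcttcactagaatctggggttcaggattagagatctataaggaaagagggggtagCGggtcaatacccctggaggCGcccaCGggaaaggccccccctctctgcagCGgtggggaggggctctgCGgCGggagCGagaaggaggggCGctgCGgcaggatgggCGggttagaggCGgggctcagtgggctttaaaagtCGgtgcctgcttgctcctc

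H19, Mest, Igf2, Meg3 and Gpc3 also host microRNAs, and those of H19 and Mest are shown here as examples. The seed, bases 2 to 8 in capitals, sets what a microRNA pairs with. None of the 4 seeds was shared. The libraries were made from poly(A) RNA, and the gene of miR-675 was listed at 0 in all 6 mice, while that of miR-335 was listed, at 0, for laboratory mouse 1 alone.
miR-675-5p in H19: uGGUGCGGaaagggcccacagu
miR-675-3p in H19: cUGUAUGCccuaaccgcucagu
miR-335-5p in Mest: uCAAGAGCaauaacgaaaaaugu
miR-335-3p in Mest: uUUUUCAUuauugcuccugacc

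All 10 genes were low in these livers. FPKM, a read abundance scaled to the length of the transcript and to the size of the library, was under 1 in 51 of 60 values, and the highest value was 4.93 for Cdkn1c in wild mouse 2. Among genes with an FPKM above 0 in the same mouse, Cdkn1c exceeded 43.6% to 67.5% of them, Peg3 28.0% to 64.2%, and Meg3, where it was above 0, 0.963% to 36.4%. Cufflinks' lower bound on FPKM, given for 5 of the mice, was 0 for 14 of 50 values of these genes. The files hold no counts, so the depth behind these values is unknown, and a value of 0 is described only as listed at 0. The 10 hepatocyte markers with an estimate in every mouse were all present, the lowest by mean being Apob at an FPKM of 244, against 4.93 for the highest value of the 10 genes. In bulk liver, fewer cells of a type and less RNA per cell cannot be told apart.

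**Figure D1:**
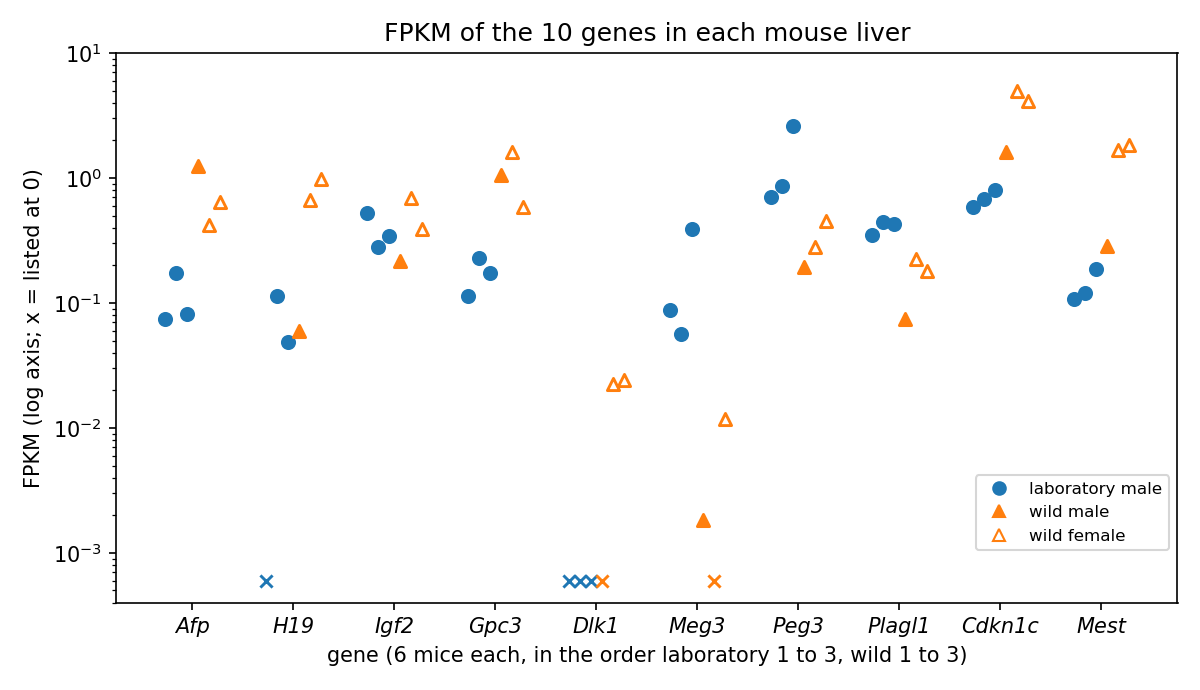
FPKM (log axis) of the 10 genes in each of the 6 livers, with laboratory males as filled circles, the wild male as a filled triangle and wild females as open triangles. Crosses mark values listed at 0. Afp, Gpc3, Cdkn1c and Mest were higher in every wild than in every laboratory mouse, and Meg3, Peg3 and Plagl1 the reverse.

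The livers were compared on zFPKM, the authors' score for each gene, which centres log2 FPKM on the mode found in each mouse and divides it by a fitted SD. In the deposited values the mode differed from 0.491 to 2.51 and the SD from 2.51 to 3.12 between mice, so an equal FPKM does not give an equal zFPKM in every mouse. Differences are given as laboratory minus wild, from limma, a linear model fitted to 19486 genes with zFPKM above -3 in at least 3 mice, with lower values set to -3 and p adjusted by Benjamini and Hochberg. Of the 10 genes, 9 were tested, and 1 of the 9 passed an adjusted p of 0.05, beside 14.4% of all tested genes (7.03% higher in laboratory and 7.35% higher in wild mice). At an unadjusted p of 0.05, 3 of the 9 passed, beside 25.6% of all tested genes. The median difference was -0.52 over the 9 genes and 0.0018 over all tested genes. That of the 9 was the value of Cdkn1c, and their differences lay on both sides of 0, from -1.06 (H19) to 1.51 (Meg3). With sex as a covariate the difference of Cdkn1c was 0.0671. Without overlap of the groups in FPKM, 4 of the 9 were higher in wild mice, beside 43.8% of tested genes, and 3 were higher in laboratory mice, beside 12.0%. FPKM itself ran higher in wild mice, with a median difference of -0.47 in log2(FPKM + 0.1) over the tested genes. In zFPKM, 2 of the 9 (Afp and Gpc3) were higher in wild mice without overlap, beside 14.3% of tested genes, and 2 (Meg3 and Peg3) were higher in laboratory mice, beside 14.0%. In two-sided exact permutation tests on FPKM, each of the 7 genes without overlap gave p = 0.1, the smallest that 3 mice against 3 can give.

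**Figure D2:**
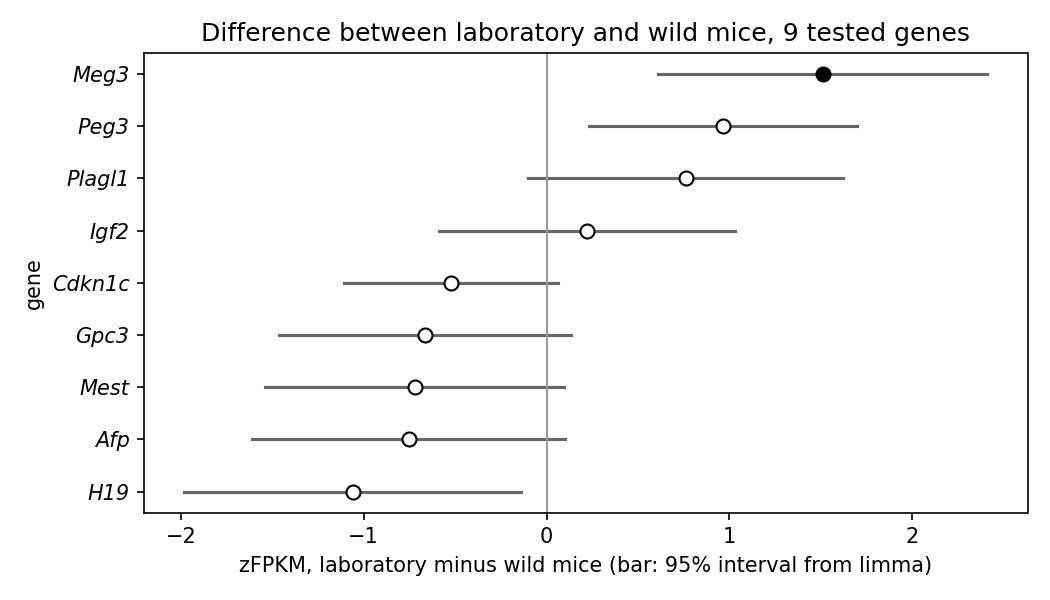
Difference in zFPKM, laboratory minus wild, of the 9 tested genes, with bars for the 95% interval from limma. The filled point, Meg3 at 1.51, passed the adjusted p of 0.05. The intervals of Peg3 and H19 leave out 0 but their adjusted p values are 0.0639 and 0.118.

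Among the fetal liver genes, Afp and Gpc3 had higher FPKM in every wild mouse than in any laboratory mouse, and H19 was high in the wild females alone. Afp was at an FPKM of 0.075, 0.175 and 0.0814 in laboratory mice 1 to 3 against 1.25, 0.421 and 0.637 in wild mice 1 to 3. The groups did not overlap, and the highest FPKM was that of the wild male. The mean FPKM was 0.11 ± 0.056 and 0.769 ± 0.429 (SD, n = 3 each), a ratio of 6.97. In zFPKM wild mice 1 to 3 were close, at -0.815, -0.819 and -0.836, and wild mouse 1 has the highest mode. Its zFPKM difference was -0.753 ± 0.435 (SE; limma, Benjamini-Hochberg adjusted p = 0.272).

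Gpc3 encodes glypican-3, a heparan sulfate proteoglycan of the cell surface that restrains growth of the fetus. Its FPKM was 0.114, 0.228 and 0.173 in the laboratory mice against 1.06, 1.62 and 0.581 in the wild ones. Every wild value exceeded the laboratory values, with means of 0.171 ± 0.057 and 1.09 ± 0.52 (SD, n = 3 each) and a ratio of 6.33. On the zFPKM scale the difference was -0.665 ± 0.407 (SE; limma, Benjamini-Hochberg adjusted p = 0.31).

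H19 is a noncoding RNA that shares enhancers with Igf2. In laboratory mouse 1 it was listed at 0, and its FPKM was 0.113 and 0.049 in laboratory mice 2 and 3. In wild mouse 1 its FPKM was 0.0594, inside the range of the laboratory mice, while wild mice 2 and 3 stood higher at 0.661 and 0.978. Both female values exceeded those of all 4 males, and the laboratory and wild groups overlapped (two-sided exact permutation p = 0.2). The zFPKM difference was -1.06 ± 0.47 (SE; limma, Benjamini-Hochberg adjusted p = 0.118). Laboratory mouse 1 was at the floor of -3, and with a floor of -5 the difference was -1.73 (adjusted p = 0.217 by limma). Without the wild male it was -1.67 (adjusted p = 0.042 by limma), and with sex as a covariate it was 0.16 (adjusted p = 0.906 by limma), opposite in sign.

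The known repressors of these genes did not pass the test. The FPKM of Zhx2 was 1.37, 1.36 and 1.27 in the laboratory mice against 2.91, 2.89 and 3.75 in the wild ones, without overlap. Its zFPKM differed by -0.198 ± 0.273 (SE; limma, Benjamini-Hochberg adjusted p = 0.717). Zbtb20, a zinc finger repressor of Afp, ranged from 1.18 to 1.8 in laboratory and from 1.18 to 1.94 in wild mice. All 16 genes of a list of regulators, holding the Zhx family, Zbtb20, liver-enriched factors and imprint-keeping proteins, were tested. Of these, 1 was higher in laboratory and 0 in wild mice, beside 7.03% and 7.35% of all tested genes. At an unadjusted p of 0.05, 7 passed in limma, beside 25.6%. The highest of the list was Cebpa, a liver-enriched factor, at a mean FPKM of 121, and the median difference of the list was -0.045. The gene that passed, also the lowest of the list, was Zfp57, a zinc finger protein that keeps DNA methylation on imprinted alleles. Its FPKM was 0.109, 0.179 and 0.323 in the laboratory and 0.00684, 0.0172 and 0.0155 in the wild mice, a difference in zFPKM of 1.41 ± 0.468 (SE; limma, Benjamini-Hochberg adjusted p = 0.0229).

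Of the neighbours of Afp, Afm, which encodes the vitamin E carrier afamin, was at an FPKM of 32.1, 45.2 and 63.5 in laboratory and 158, 177 and 194 in wild mice. It was higher in wild mice by 0.413 in zFPKM (laboratory minus wild -0.413 ± 0.126 SE; limma, Benjamini-Hochberg adjusted p = 0.0112). Alb had no usable estimate in every mouse and was left out. Across 33 neighbours of the 10 genes, 31 were listed and 17 tested. Of the 17, 1 was higher in each group, beside 7.03% of all tested genes in laboratory and 7.35% in wild mice. The other that passed was Mrpl23, a mitochondrial ribosomal protein gene beside H19. Its FPKM was 89.5, 85.7 and 98.2 in laboratory and 49.8, 62.8 and 57.5 in wild mice (limma, Benjamini-Hochberg adjusted p = 0.00199). The median difference of the neighbours was -0.071, Afm was the highest of them by mean FPKM, and 8 were listed at 0 in all 6 mice, the tyrosine hydroxylase gene Th and the insulin gene Ins2 among them.

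Igf2 encodes insulin-like growth factor 2, the main growth factor of the fetus, which in mice largely gives way to IGF1 after weaning. Its FPKM was 0.529, 0.282 and 0.344 in the laboratory mice against 0.215, 0.695 and 0.39 in the wild ones. The groups overlapped, and the lowest and highest values both came from wild mice (two-sided exact permutation p = 0.8). The means were 0.385 ± 0.128 and 0.434 ± 0.243 (SD, n = 3 each). In zFPKM its difference was 0.219, with a 95% interval of -0.59 to 1.03 (limma, Benjamini-Hochberg adjusted p = 0.802). Its sign turned in log2(FPKM + 1), where the difference was -0.0404, and in log2(FPKM + 0.1), where it was -0.0687.

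The other genes of the pathway moved in both directions. All 14 listed genes were tested, with 2 higher in laboratory and 2 in wild mice, beside 7.03% and 7.35% of all tested genes. The median difference of the 14 was -0.106. Igf1, the postnatal growth factor, was at an FPKM of 138, 117 and 111 in laboratory and 54, 48 and 47.9 in wild mice. It was higher in laboratory mice by 0.696 ± 0.128 in zFPKM (SE; limma, Benjamini-Hochberg adjusted p = 2.56e-06). Igfbp7, a secreted binding protein, was also called higher in laboratory mice (limma, Benjamini-Hochberg adjusted p = 0.00956), although its FPKM overlapped, from 74.2 to 88.6 against 36.7 to 85.3. Igfbp1, a secreted protein that binds IGF1 and IGF2 and is induced by fasting, was higher in wild mice. Its FPKM was 5.44, 20.9 and 14.3 in laboratory and 74.1, 172 and 29 in wild mice (limma, Benjamini-Hochberg adjusted p = 0.000453).

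Igf2r, the imprinted receptor that clears IGF2 into lysosomes, was at an FPKM of 0.0282 in laboratory mouse 1 and was listed at 0 in laboratory mice 2 and 3. In wild mice 1 to 3 its FPKM was 0.396, 0.599 and 0.863, above every laboratory value. The difference in zFPKM was -1.68 ± 0.47 (SE; limma, Benjamini-Hochberg adjusted p = 0.00474). Airn, the noncoding RNA that overlaps Igf2r on the opposite strand, ranged from 0 to 0.87 in laboratory and from 0.0213 to 0.0357 in wild mice. The libraries were stranded, but the sources do not state whether strand was used in counting, so the values of overlapping genes are uncertain. Igf1r, the signalling receptor of IGF1 and IGF2, was the lowest of the pathway at a mean FPKM of 0.142, and it differed by -0.0119 in zFPKM (limma, Benjamini-Hochberg adjusted p = 0.992). Igfbp4, a binding protein, was the highest at 474.

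Meg3, the noncoding RNA of the Dlk1 cluster, was the single gene of the 10 that passed the test. Its FPKM on chromosome 12 was 0.087, 0.0563 and 0.388 in laboratory mice 1 to 3. In wild mouse 1 it was 0.00182, in wild mouse 2 it was listed at 0, and in wild mouse 3 it was 0.0117. All laboratory values lay above all wild values, at levels at which Cufflinks' lower bound was 0 in laboratory mouse 2 and in all 3 wild mice. The difference in zFPKM was 1.51 ± 0.46 (SE), with a 95% interval of 0.609 to 2.41 (limma, Benjamini-Hochberg adjusted p = 0.0114). Wild mice 1 and 2 were at the floor of -3, and with a floor of -5 the difference was 2.62 (adjusted p = 0.0446 by limma). The call was lost without wild mouse 2 (adjusted p = 0.0575 by limma, difference 1.48) and without wild mouse 3 (adjusted p = 0.0658 by limma, difference 1.57). It was also lost with sex as a covariate (adjusted p = 0.0817 by limma), in the males alone (adjusted p = 0.215 by limma), in log2(FPKM + 1) (adjusted p = 0.128 by limma) and with no filter on low values (adjusted p = 0.466 by limma), with the same sign in each.

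For 5 of the mice Meg3 is listed a second time, on an alternate scaffold of the assembly, and reads may have been split between the copies. Summed over both, its FPKM was 0.157 and 0.883 in laboratory mice 2 and 3, was 0.00364 in wild mouse 1, was listed at 0 in wild mouse 2 and was 0.0234 in wild mouse 3. Laboratory mouse 1 lists 1 copy, at 0.087. The order of the groups was the same as on chromosome 12 alone.

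Dlk1 encodes a membrane protein of the Notch ligand family that marks fetal hepatoblasts. The copy shared by all 6 mice lies on the alternate scaffold, where it was listed at 0 in all 3 laboratory mice and wild mouse 1. In wild mice 2 and 3, the females, its FPKM was 0.0223 and 0.0241, with a lower bound of 0, and it was too low to test in limma. Summed over both copies, Dlk1 reached 0.0797 in wild mouse 2 and 0.0975 in wild mouse 3. The two-sided exact permutation p on the shared copy was 0.4.

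Further RNAs of the same cluster were near the limit of the tables. Rian, a noncoding RNA that hosts small nucleolar RNAs, was at an FPKM of 0.00694, 0.0764 and 0.105 in laboratory and 0.0243, 0.0204 and 0.0059 in wild mice, and it did not pass the test (limma, Benjamini-Hochberg adjusted p = 0.35). Mirg, which hosts microRNAs, was listed at 0 in 4 mice and reached 0.0431 and 0.0468 in laboratory mice 2 and 3. Rtl1, a retrotransposon-derived gene needed in the placenta, was listed at 0 in all 6 mice.

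Peg3 and Plagl1, which encode zinc finger proteins expressed from the paternal allele, had higher FPKM in every laboratory than in any wild mouse. Peg3 was at an FPKM of 0.708, 0.862 and 2.62 in the laboratory and 0.193, 0.278 and 0.456 in the wild mice. Laboratory mouse 3 stood highest, while the zFPKM of the 3 laboratory mice lay between -0.331 and -0.29, since that mouse has a higher mode. The means were 1.4 ± 1.06 and 0.309 ± 0.134 (SD, n = 3 each), a ratio of 4.52. The difference in zFPKM was 0.965 ± 0.375 (SE; limma, Benjamini-Hochberg adjusted p = 0.0639), and with sex as a covariate it was 1.51 (adjusted p = 0.026 by limma). The difference of 1.51, though not its p, is the same in males only. Both fits rest on the 1 wild male against the laboratory males.

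Plagl1 was at an FPKM of 0.35, 0.445 and 0.426 in the laboratory and 0.0744, 0.226 and 0.18 in the wild mice. The groups did not overlap, and the wild male was lowest. Its means were 0.407 ± 0.0504 and 0.16 ± 0.078 (SD, n = 3 each), a ratio of 2.54. In zFPKM the groups overlapped, and the difference was 0.76 ± 0.441 (SE; limma, Benjamini-Hochberg adjusted p = 0.275).

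Cdkn1c and Mest had their highest values in the wild females. Cdkn1c encodes p57, an inhibitor of cyclin-dependent kinases that stops cell division and is expressed from the maternal allele. Its FPKM was 0.582, 0.681 and 0.798 in the laboratory mice, against 1.62 in the male and 4.93 and 4.13 in the females caught wild. The groups did not overlap in FPKM, with means of 0.687 ± 0.108 and 3.56 ± 1.73 (SD, n = 3 each) and a ratio of 5.19. In zFPKM the wild male, at -0.675, lay within the laboratory range of -0.973 to -0.409, while the females stood at 0.318 and 0.0971. The difference over the groups was -0.521 ± 0.299 (SE; limma, Benjamini-Hochberg adjusted p = 0.268), and with sex as a covariate it was 0.0671 (adjusted p = 0.926 by limma).

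Mest, a paternally expressed gene, encodes a membrane protein of the hydrolase fold. Its FPKM was 0.108, 0.119 and 0.187 in the laboratory mice, against 0.283 in the male and 1.66 and 1.84 in the females caught wild. The wild females stood far above all 4 males, and the wild male stood above the laboratory males by less than the females. In zFPKM the wild male, at -1.61, lay within the laboratory range of -1.81 to -1.19. The difference was -0.72 ± 0.417 (SE; limma, Benjamini-Hochberg adjusted p = 0.273). It was -1.18 without the wild male (adjusted p = 0.041 by limma), and 0.19 with sex as a covariate (adjusted p = 0.831 by limma). Copg2, which overlaps Mest on the opposite strand, was at an FPKM of 1.19, 1.82 and 1.71 in laboratory and 7.78, 6.91 and 7.22 in wild mice.

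The values of the wild females were also set against those of all 4 males. In FPKM both wild females exceeded all 4 males for 4 of the 10 genes (H19, Dlk1, Cdkn1c and Mest). Dlk1 was not among the tested genes, of which 25.1% showed the same order, so it has no part in that comparison. In zFPKM the females did so for 5, Gpc3 added and the untested Dlk1 included, beside 32.6% of tested genes. The wild male alone exceeded all 3 laboratory males in FPKM for 4 genes (Afp, Gpc3, Cdkn1c and Mest), beside 51.9% of tested genes. It lay below all of them for 4 (Igf2, Meg3, Peg3 and Plagl1), beside 24.8%. With 1 wild male, a difference by sex and a difference between wild animals cannot be told apart.

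The number of the 9 tested genes that passed differed between scalings and sets of mice. After quantile normalization 7 of 9 passed, beside 39.0% of all tested genes, and with every mouse at a median of 0 it was 5 of 9, beside 28.2%. In log2(FPKM + 0.1) it was 7 of 9, beside 46.2%, and in log2(FPKM + 1) it was 5 of 9, beside 44.3%. Without laboratory mouse 3 and wild mouse 1, whose modes were highest, 4 of 9 passed (Meg3, Peg3, Cdkn1c and Mest), beside 30.4%. Without wild mouse 1 alone, 3 of 9 passed (H19, Meg3 and Mest), beside 11.4%. With sex as a covariate, where only the wild male is set against the laboratory mice, 1 of 9 passed, Peg3, beside 7.10%.

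Meg3 remained the single gene of the 9 that passed without each laboratory mouse in turn, beside 8.84%, 9.36% and 13.5% of tested genes for mice 1 to 3, and in limma without the trend, beside 4.34%. Without wild mouse 2 or wild mouse 3, 0 of 9 passed in limma, beside 8.90% and 7.50%. In settings added after the data were seen, 5 of 9 passed in log2(FPKM + 0.1) with every mouse at a median of 0, beside 47.6%, and 6 of 9 once a trend with transcript length was removed, beside 29.8%. In the males alone 0 of 9 passed, as did 0.00% of all tested genes, and with no filter on low values 0 of 10 passed, beside 0.0407%. With a floor of -5, 1 of 9 passed, Meg3, beside 10.4%. Among genes with zFPKM above -3 in all 6 mice, which leaves out Meg3 and H19, 1 of 7 passed, Peg3 (adjusted p = 0.0385 by limma), beside 13.9%.

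**Figure D3:**
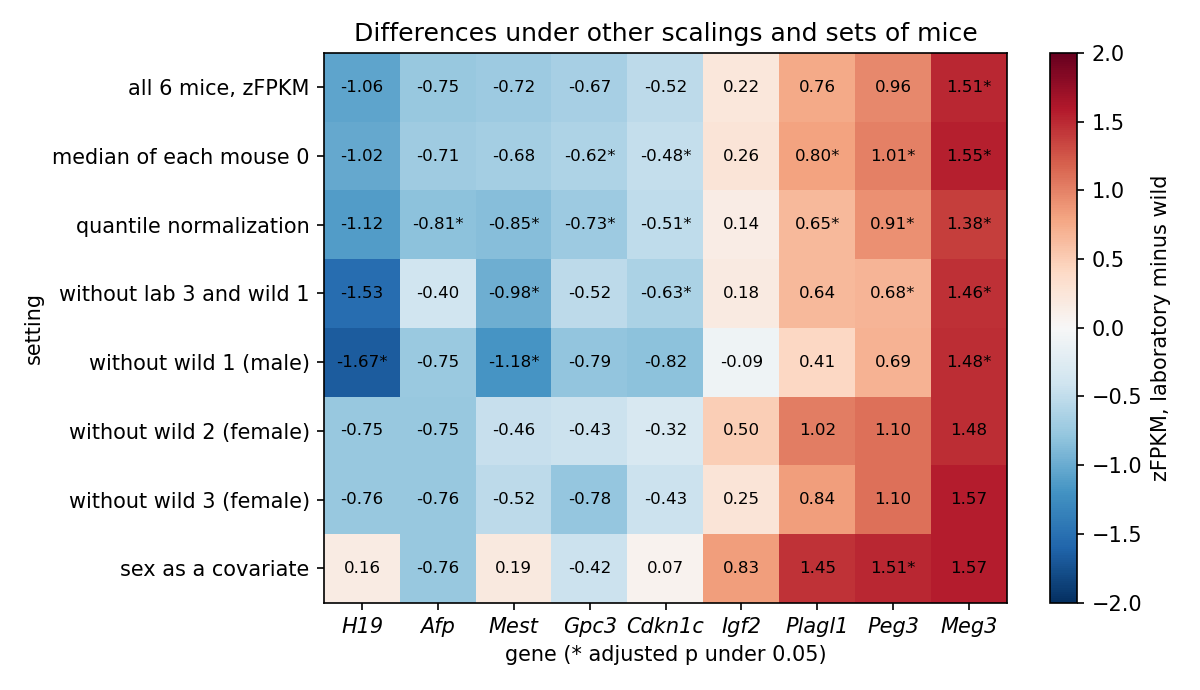
Difference in zFPKM, laboratory minus wild, of the 9 tested genes (columns) under 8 settings (rows), with an asterisk where the adjusted p from limma is under 0.05. Afp and Gpc3 are negative and Meg3, Peg3 and Plagl1 are positive in every row, while H19, Mest and Cdkn1c turn positive with sex as a covariate and Igf2 turns negative without the wild male.

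The 3 tested genes nearest to Cdkn1c in zFPKM over the 6 mice, by Euclidean distance, were Bace2 (0.226), Fndc3b (0.26) and Zbtb8os (0.261). Bace2, for example, was at an FPKM of 0.568, 0.796 and 0.822 in laboratory and 1.93, 3.72 and 3.12 in wild mice.

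Among proteins that act with the 10 genes, namely glypicans, Notch receptors, cyclin-dependent kinases and their inhibitors, all 14 were tested. In limma 0 were higher in laboratory and 1 in wild mice, beside 7.03% and 7.35% of all tested genes. At an unadjusted p of 0.05, 2 passed in limma, beside 25.6%. The median difference was -0.164. Cdkn1a encodes p21, a p53-induced inhibitor related to p57, and its FPKM was 0.0137, 0.124 and 0.269 in the laboratory mice. It was 0.93 in the male caught wild, against 10.4 and 10.7 in the females, so the females again stood highest. The difference in zFPKM was -1.75 ± 0.374 (SE; limma, Benjamini-Hochberg adjusted p = 8.17e-05). Cdkn1b, encoding p27, ranged from 6.35 to 7.28 in laboratory and from 6.52 to 10.5 in wild mice (limma, Benjamini-Hochberg adjusted p = 0.712). Mki67, a marker of dividing cells and the lowest of the list by mean FPKM, ranged from 0.0365 to 0.0905 and from 0.0594 to 0.319, with overlap. Cdk4, the highest, had a mean FPKM of 17.7.

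Of 48 other imprinted genes, 47 were listed and 39 tested. Of the 39, 2 were higher in laboratory and 3 in wild mice, beside 7.03% and 7.35% of all tested genes. The median difference of the list was 0.108, beside -0.52 for the 9 genes, whose differences lay on both sides of 0, from -1.06 to 1.51. Gnas, which encodes the stimulatory G protein alpha subunit and was the highest of the list, was at an FPKM of 731, 573 and 548 in laboratory and 236, 208 and 228 in wild mice (limma, Benjamini-Hochberg adjusted p = 8.19e-11). H13, a signal peptide peptidase gene, was at an FPKM of 84.8 to 102 in laboratory and 67.5 to 83.8 in wild mice (limma, Benjamini-Hochberg adjusted p = 0.0439). Higher in wild mice were Igf2r and Slc22a2, an organic cation transporter gene beside it. Slc22a2 was at an FPKM of 0.0266, 0.0266 and 0.0432 in laboratory and 6.47, 2.56 and 2.8 in wild mice (limma, Benjamini-Hochberg adjusted p = 1.13e-05). Snrpn, a splicing protein gene, was also higher in wild mice (limma, Benjamini-Hochberg adjusted p = 1.11e-05), but it shares transcripts with Snurf, so its values are uncertain.

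Of the 47 other imprinted genes listed, 25 were at a mean FPKM under 1, and 11 were above 4.93, the highest value of the 10 genes. Grb10, an adaptor that restrains insulin signalling, overlapped between the groups, from 0.236 to 0.524 and from 0.298 to 0.708. Ndn, a growth suppressor, ranged from 0.195 to 0.423 in laboratory and from 0.442 to 0.457 in wild mice (limma, Benjamini-Hochberg adjusted p = 0.959). Nnat, a small membrane protein gene, was at most 0.0492 in any mouse. The FPKM of Peg10, also retrotransposon-derived and needed in the placenta, was 0.203, 0.116 and 0.149 in the laboratory mice. It was listed at 0 in wild mouse 1 and was 0.0478 and 0.037 in wild mice 2 and 3 (limma, Benjamini-Hochberg adjusted p = 0.155). Slc38a4, an amino acid transporter gene of adult liver, was at 75.9, 119 and 107 in laboratory and 288, 343 and 272 in wild mice (limma, Benjamini-Hochberg adjusted p = 0.0691). In all, 4 of the listed genes were at 0 in all 6 mice, Rtl1 among them.

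Of 14 fetal and oncofetal genes, 7 were listed at 0 in all 6 mice, the RNA-binding protein gene Lin28b among them, beside 49.9% of all listed genes. Of the list, 5 genes were tested. In limma 0 of the 5 were higher in laboratory and 1 in wild mice, beside 7.03% and 7.35% of all tested genes. Igf2bp1, which encodes a protein that binds Igf2 mRNA, was listed at 0 in 4 mice and reached 0.0168 and 0.00974 in the wild females. Its relative Igf2bp3 was 0.347, 0.476 and 0.282 in laboratory and 0.0922, 0.0942 and 0.211 in wild mice, without overlap, and did not pass the test (limma, Benjamini-Hochberg adjusted p = 0.284). Cyp3a16, a cytochrome P450 of fetal and young mouse liver, was the single gene of the list that passed. Its FPKM was 0.325, 0.357 and 0.141 in the laboratory mice, against 2.96 in the male and 385 and 192 in the females caught wild (limma, Benjamini-Hochberg adjusted p = 5.57e-23), with the highest values in the females. The SE behind this p, 0.235 in zFPKM, comes largely from the trend over all tested genes. It does not reflect the wide spread of Cyp3a16 among the wild mice.

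Of the 13 genes of these lists that passed, 7 still passed in limma with any 1 mouse left out (Gnas, Igf1, Slc22a2, Snrpn, Cyp3a16, Cdkn1a and Mrpl23). Igf2r lost its call without laboratory mouse 2, laboratory mouse 3 or wild mouse 3, with a highest adjusted p of 0.0729 in limma. Zfp57 lost it without laboratory mouse 1 or 2 or wild mouse 1 or 3, at up to 0.124 by limma. Afm lost it without laboratory mouse 1 or wild mouse 2 or 3, at up to 0.168, Igfbp1 without laboratory mouse 3 or wild mouse 1 or 2, at up to 0.222, and Igfbp7 without laboratory mouse 1 or 2 or wild mouse 1, at up to 0.21 (adjusted p, limma). H13 lost it without every mouse in turn except laboratory mouse 3, at up to 0.299 by limma. With sex as a covariate 7 of the 13 lost the call, each with the same sign. Adjusted p from limma was then 0.349 for Cdkn1a, 0.282 for Cyp3a16, 0.24 for Igf2r, 0.289 for Igfbp1, 0.283 for Afm, 0.127 for H13 and 0.0556 for Zfp57. The difference in that fit was -0.691 for Cdkn1a and -0.78 for Cyp3a16.

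**Figure D4:**
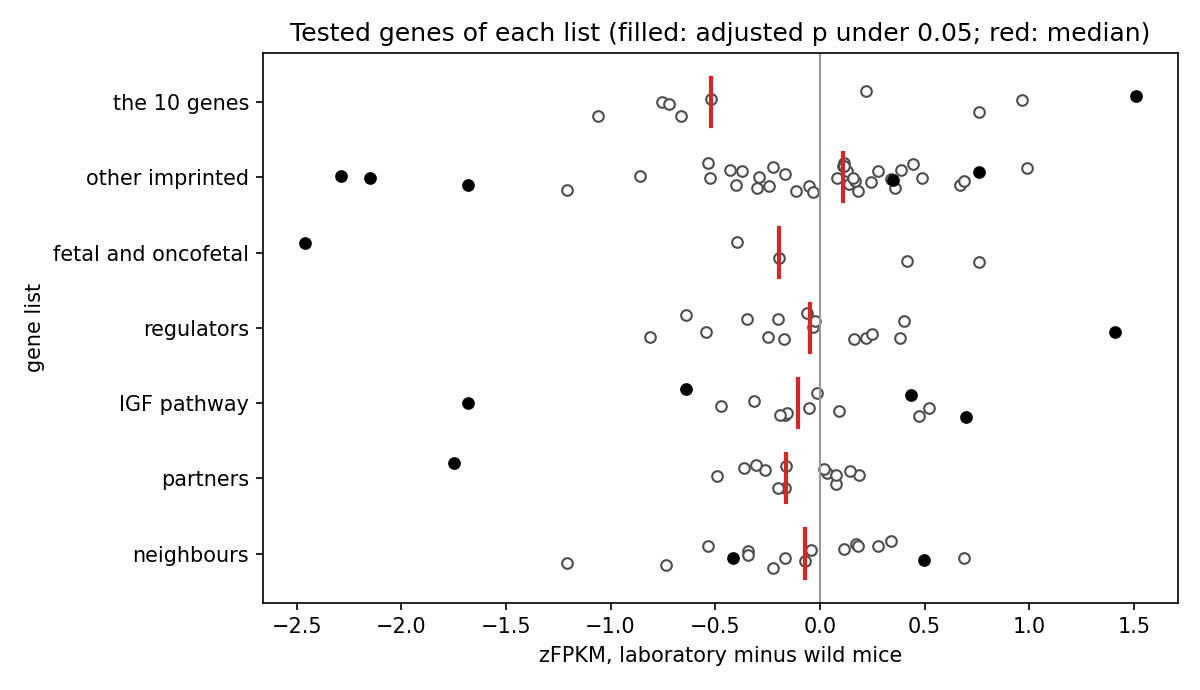
Difference in zFPKM, laboratory minus wild, of every tested gene of 7 lists, filled where the adjusted p from limma is under 0.05, with the list median as a red line. The median is -0.52 for the 9 tested of the 10 genes and lies between -0.195 and 0.108 for the other lists. The 9 differences lie on both sides of 0, from -1.06 to 1.51.

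Some of these genes are known in cells other than hepatocytes, so marker levels are given beside them. Over all tested genes, 7.03% were called higher in laboratory and 7.35% in wild mice, and 25.6% had an unadjusted p under 0.05 in limma. Of 12 stellate and fibroblast markers 2 passed, Col1a1 and Col3a1, collagen genes higher in laboratory mice. Both calls were lost in limma without laboratory mouse 1, laboratory mouse 2 or wild mouse 1. The summed FPKM of the list was 114 to 142 in laboratory and 170 to 294 in wild mice. Ecm1, at 74 to 83.7 and 85 to 145, and Dcn, at 21.7 to 32.4 and 62.7 to 112, made up most of it. Of 6 biliary markers 1 passed, Spp1, and their sum was 29.7 to 64.6 in laboratory and 12.3 to 27.6 in wild mice. Spp1 made up most of it, and the other 5 summed to 3.84 to 9.62 and 1.73 to 4.59, with overlap. Among 10 endothelial and 8 Kupffer cell and leukocyte markers 0 passed in limma, with 2 of each list at an unadjusted p under 0.05. The endothelial sums overlapped, at 37.6 to 56.5 and 27.8 to 85.5, as did the Kupffer cell and leukocyte sums, at 30.2 to 37.1 and 12.3 to 112. Of 7 erythroid markers 5 were higher in laboratory mice, namely the heme synthesis gene Alas2 and the globin genes Hba-a1, Hba-a2, Hbb-bs and Hbb-bt, and the sum of the 7 was 1340 to 5140 against 724 to 1580. Hbb-bs and Hbb-bt lost their calls in limma without laboratory mouse 2 or wild mouse 1. Of the 10 hepatocyte markers tested, 2 were higher in laboratory mice (Apoa1 and Ttr, each with the opposite sign in 1 of 4 other scalings) and 3 in wild mice. The part of cell makeup in the values of the 10 genes was not tested.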

How the data were processed

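Liver RNA of 6 mice was sequenced by the study from stranded mRNA libraries. The authors aligned reads to the masked mouse genome (GRCm38.p6, per the labels), calculated FPKM with the Tuxedo pipeline and deposited it per gene. The authors also deposited zFPKM, a score made from log2 FPKM with the R package of that name. Counts were not used here, so edgeR, which the study used, was not run. Genes were matched by name and place, with 1 added to each start, and 31 of 49166 shared places with a failed estimate were left out. Failed estimates and bounds are marked for 5 of the 6 mice. The comparison of origins used lmFit and eBayes with trend from limma 3.58.1 (R 4.3.3) with Benjamini-Hochberg adjustment. A run on simulated data checked only that the procedure worked. It used independent normal noise and shifts larger than any main-fit difference of the 10 genes, so it cannot support the calls made here. Exact permutation tests used scipy 1.17.1 in Python 3.11.15. The 10 genes and all lists were chosen with earlier results of these data known. Named were the 10 genes, the genes of each other list that passed, if at most 6, its highest and lowest by mean FPKM, a fixed set of relatives and neighbours, and the 3 genes nearest to the highest of the 10 in zFPKM. Marker lists are given by sums. Th, Ins2, Airn and Copg2 were added after their values were seen. The precision rests on 3 mice a group and, in the main limma fit, on a variance trend over all tested genes. Alternatives concerned scaling, filters, sex and leaving out mice.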

Additional observations from a re-analysis of the deposited data

How the results depend on the processing

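The direction was the same in every setting tried for Afp, Gpc3, Meg3, Peg3 and Plagl1. Igf2 (0.219 in zFPKM) turned to -0.0404 in log2(FPKM + 1), -0.0687 in log2(FPKM + 0.1), -0.0157 without laboratory mouse 1 and -0.0887 without wild mouse 1, and lay between -0.0887 and 0.497 with 1 mouse left out. With sex as a covariate and in males only, H19 turned to 0.16, Cdkn1c to 0.0671 and Mest to 0.19. Both settings set the 1 wild male against the laboratory males, so their differences are the same. The genes called, those called among the 9 tested of the 10 and the genes of the other lists called were 2802, 1 and 13. They were 20, 0 and 0 with no filter on low values, 8625, 5 and 42 in log2(FPKM + 1), and 9007, 7 and 44 in log2(FPKM + 0.1). They were 5490, 5 and 27 with the median of each mouse at 0, 7603, 7 and 45 after quantile normalization, and 845, 1 and 3 in limma with no trend. They were 1383, 1 and 7 with sex as a covariate, 5929, 4 and 36 without laboratory mouse 3 and wild mouse 1, and 0, 0 and 0 in males only. After seeing the data, 3 settings were added. Log2(FPKM + 0.1) with a median of 0 gave 9273, 5 and 40, and removing a trend with transcript length and the mean of each mouse gave 5165, 6 and 27. In the main fit, which leaves this trend in, the median difference fell with transcript length. It was 0.154 for transcripts under 1 kb and -0.0979 for those over 6 kb. After removal these medians were 0.0407 and -0.0339. Keeping only gene names listed once removed Meg3, and 0 of 8 genes passed. Leaving out 1 mouse at a time gave 1462 to 2636 genes, 0 to 3 of the 9 and 9 to 14 of the other lists. The causes were not tested. In males only, 1 wild mouse is assumed to vary like the laboratory mice. No paired analysis was possible because replicate numbers follow the order of the samples and pair no mice. Depth is unknown, and values this low carry wide bounds.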
